A study of Erythranthe guttata with 80 samples.

Results

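The genes described here came from the common monkeyflower, Mimulus guttatus (also called Erythranthe guttata). They were close to silent in leaves and clearly transcribed in floral buds, at a similar mean level in both ecotypes. They were selected on their measured values. A gene was kept if its mean was under 1 CPM (a gene's count divided by the library total, times 1000000) in each of the 6 leaf groups, at least 20 CPM in both bud groups, and if its Coast bud to Inland bud ratio lay from 0.5 to 2. Genes that the study names by identifier in its text were to be left out, and 0 of those 65 genes met the rule. The rule kept 113 of 28140 genes. Because the low leaf level, the high bud level and the ecotype ratio in buds all chose the members, these values are given as a description and support nothing. For the bud contrast only a count of calls is printed, beside its background.

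The plants came from 1 coastal perennial accession, SWB-4 (Coast), and 1 inland annual accession, LMC-17 (Inland), so an ecotype difference here is a difference between 2 accessions. All plants grew under the same chamber conditions with no treatment and gave a single tissue each, so the 10 plants of a group were biological replicates. Coast plants gave leaves at the 2leaf, 4leaf, 6leaf and 8leaf stages (named for the leaves formed) and floral buds, and Inland plants, which flowered sooner, gave 2leaf, 4leaf and bud samples. Buds came from plants near anthesis, the opening of the flower, and the study states that all tissue was sampled before it. The 80 libraries counted the 3′ ends of transcripts and were prepared in 4 pools of 20.

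Library totals ran between 1256776 and 6090402 counts with a median of 3839604, and both extremes were Inland buds (plants 6 and 7). No pair of libraries held identical counts. The tissue labels were checked against gene sets that the study chose on these samples, which is why they are not independent evidence. The 7 leaf chloroplast genes were all lower in both bud groups than in every leaf group, with a summed level of 442 to 1160 CPM in bud libraries and 3308 to 5201 CPM in leaf libraries. The 5 bud cell wall genes were all higher in both bud groups, at a summed 346.8 to 4946 CPM in bud libraries and 2.60 to 17.1 CPM in leaf libraries, and no gene of either set was without a count.

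A floral bud carries tissues that a leaf lacks. The anthers make pollen and are lined by the tapetum, a short-lived cell layer that feeds the developing grains and builds their coat. The ovary encloses ovules, and petals and sepals are still expanding. Transcripts of the tapetum and of maturing pollen are known in flowering plants for being abundant during brief windows of anther development and rare in leaves. Identifiers of the Migut series were not paired with gene names in the sources used here, so the members are described by identifier and no function is assigned to any of them. In bulk tissue, fewer cells of a type and less RNA per cell cannot be told apart.

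The rule left the 113 genes between 2 unequal flanks. In all, 10493 genes were under 1 CPM in each leaf group, and 224 of them reached 20 CPM in both bud groups. Of the 111 that the ratio limits removed, 11 had a Coast to Inland ratio above 2 and 100 had a ratio under 0.5. A further 202 leaf-low genes reached 20 CPM in only 1 bud group, 49 of them in Coast buds and 153 in Inland buds. Among the members the Coast to Inland ratio ran between 0.502 and 1.98 with a median of 0.819, and 31 were above 1 and 82 under 1. Within library pools, with 2 or 3 bud libraries per ecotype each, the median was 0.526 in pool 1, 1.10 in pool 2, 0.924 in pool 3 and 0.607 in pool 4, so its direction turned in pool 2. Among the 6979 genes at 20 CPM or more in both bud groups, whatever their leaf level, the median ratio was 1.01. Of the members, 72.6% had a ratio under 1, against 48.6% of those 6979 genes.

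**Figure D1:**
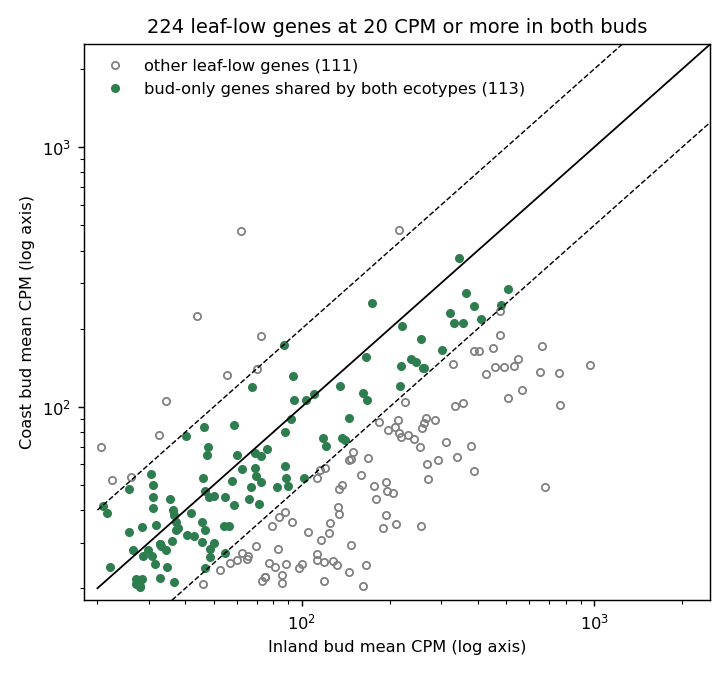
Mean CPM in Coast buds against mean CPM in Inland buds (both axes logarithmic, 10 plants per mean) for the 224 genes under 1 CPM in every leaf group and at 20 CPM or more in both bud groups. Filled points are the 113 members, open points the other 111 genes, the solid line marks equal means and the dashed lines ratios of 0.5 and 2. Most open points lie on the Inland side, with 100 under the lower dashed line and 11 above the upper one.

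The limits cut through a continuous range. At the leaf limit, Migut.L01883 and Migut.K00461 fell just inside with highest leaf group means of 0.982 and 0.959 CPM, and Migut.G00693 and Migut.B01725 fell just outside with 1.01 and 1.03 CPM. At the bud minimum, Migut.L01967 and Migut.O00011 were inside with a lower bud mean of 20.2 and 20.4 CPM, and Migut.L01460 and Migut.F00533 were outside with 20.0 and 19.5 CPM. At the lower ratio limit, Migut.N02965 and Migut.M01307 were inside with 0.502 and 0.511, and Migut.O00561 and Migut.L00257 were outside with 0.492 and 0.490. At the upper limit, Migut.K00274 and Migut.L00863 were inside with 1.98 each, and Migut.F01480 and Migut.N00795 were outside with 2.00 and 2.06.

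The limits fixed a large step between bud and leaf in advance, and its size is given as a description. In 109 of 113 members the lowest of the 20 bud libraries lay above the highest of the 60 leaf libraries, a pattern held by 7.79% of the 25152 genes with a count, and since the rule used this contrast nothing is read from that count. Member means spanned 20.2 to 373 CPM in Coast buds, with a median of 49.4, and 20.9 to 509 CPM in Inland buds, with a median of 54.7. The mean over all leaf libraries spanned 0.0183 to 0.826 CPM with a median of 0.219, so that the leaf level was 0.0621% to 2.17% of the bud level (median 0.263%). The 4 members whose bud and leaf libraries overlapped were Migut.K01075, Migut.A01008, Migut.L01143 and Migut.N00270, chosen here after their values were seen, and their lowest bud libraries had 0.580, 0, 1.26 and 0.796 CPM, against highest leaf libraries of 0.930, 1.52, 1.81 and 1.254 CPM.

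**Figure D2:**
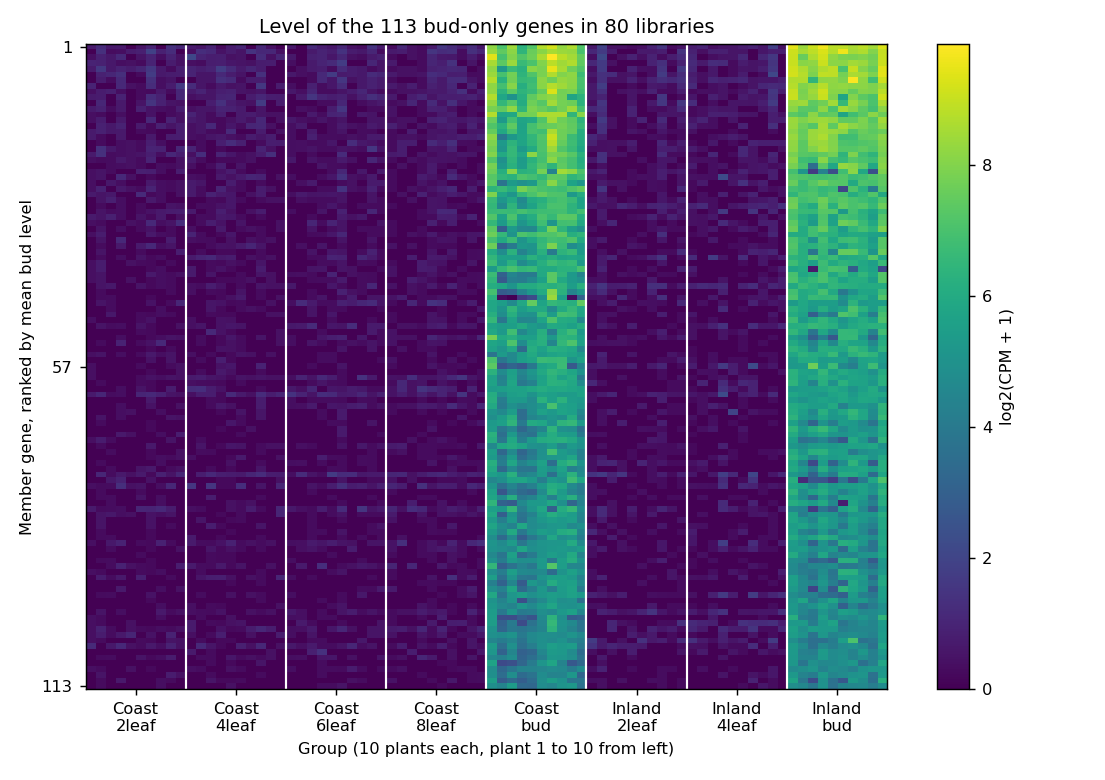
Level of the 113 members (rows, the highest mean bud level at the top) in the 80 libraries (columns, 10 plants per group, plant 1 to 10 from the left), as log2(CPM + 1). The 2 bud blocks stand out from the 6 leaf blocks, single bud plants appear as darker or brighter columns, and a few rows have bud plants as dark as leaves, as in the 4 members whose bud and leaf libraries overlapped.

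The 6 most abundant members supplied 20.3% of the summed member level in buds, and 25 members had a mean of at least 100 CPM in both bud groups. Migut.H01428 had 78.7 to 587 CPM in Coast buds (median 300) and 326 to 789 CPM in Inland buds (median 460), with means of 284 ± 161 and 509 ± 152 CPM (SD, n = 10 each). Its lowest Coast plant was plant 4 and its highest was plant 7, and the ranges of the ecotypes overlapped. Migut.K00490 was the member with the highest Coast mean, at 125 to 925 CPM in Coast buds (mean 373 ± 258) and 186 to 573 CPM in Inland buds (mean 345 ± 149). Coast plants 7 and 1 held its highest values, 925 and 685 CPM, and no Inland plant reached either.

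Migut.K00461 had 85.8 to 373 CPM in Coast buds and 263 to 778 CPM in Inland buds, a ratio of 0.516 that brought it close to the lower ratio limit. Migut.K01207 was similar, with 83.6 to 408 CPM in Coast buds and 221 to 702 CPM in Inland buds. In both genes the lowest Coast plant was plant 4 and the ecotype ranges overlapped. Migut.M00420 had 102 to 456 CPM in Coast buds and 228 to 536 CPM in Inland buds, and Migut.L01474 had 37.6 to 710 CPM in Coast buds and 130 to 684 CPM in Inland buds. The highest Coast plant was plant 7 in all 6 genes, while the lowest was plant 2 in Migut.K00490 and Migut.L01474 and plant 4 in the other 4 genes.

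**Figure D3:**
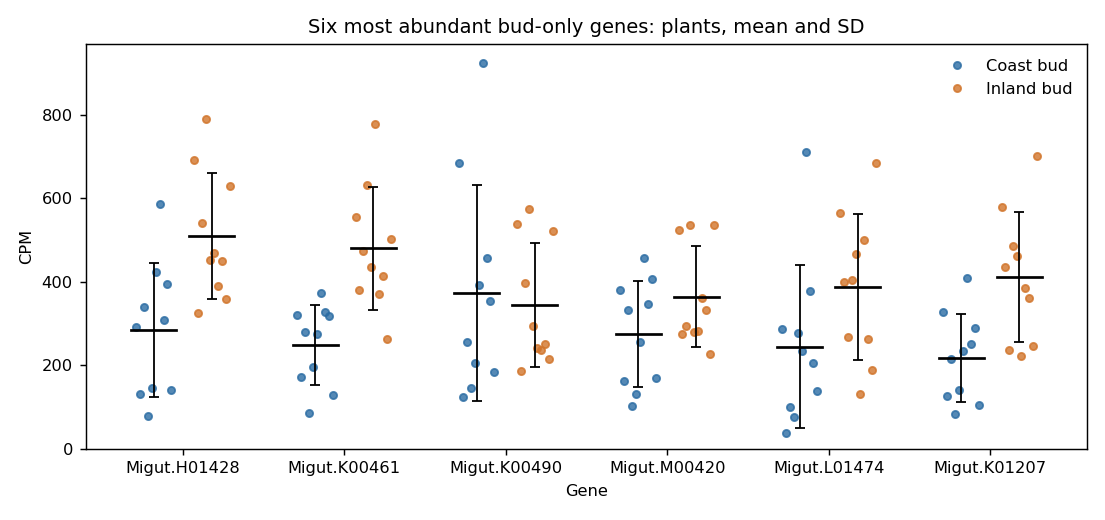
CPM of the 6 members with the highest mean bud level, with Coast bud plants in blue on the left and Inland bud plants in orange on the right of each gene (10 plants each). Black lines are group means and bars are 1 SD. The ranges of the ecotypes overlap in every gene, and Migut.L01474 has 1 Coast plant, at 710 CPM, apart from the other 9.

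Members with nearly equal means could still differ in the spread among plants. Migut.H00353 averaged 90.0 ± 34.6 CPM in Coast buds and 91.5 ± 39.97 CPM in Inland buds, with a like spread in both. Migut.C01105 averaged 47.6 ± 21.3 CPM in Coast buds and 46.7 ± 8.01 CPM in Inland buds, and its Inland range of 32.1 to 56.9 CPM lay within its Coast range of 17.2 to 78.6 CPM. Migut.H02418 averaged 113 ± 68.3 CPM in Coast buds and 110 ± 31.4 CPM in Inland buds. A ratio near 1 between the means therefore described the groups and not single plants.

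The members varied more among plants of a group than genes usually did. The coefficient of variation (CV, the SD as a percent of the mean) had a median of 53.3% in Coast buds and 39.9% in Inland buds, while the median over the 6979 genes at 20 CPM or more in both bud groups was 19.5% in Coast buds and 19.7% in Inland buds. The CV was higher in Coast than in Inland buds for 79 of 113 members (69.9%, against 51.4% of the 6979 genes). The other 111 leaf-low genes varied at least as much in Coast buds, with a median CV of 90.2%, and had 34.7% in Inland buds.

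Single members ranged from steady to nearly on or off. Migut.C01334 was the steadiest in Coast buds, with 83.5 to 123 CPM over the 10 plants (CV 10.9%), yet it had 37.4 to 156 CPM in Inland buds (CV 38.4%), where plant 6 was lowest. Migut.D00623 had 41.5 to 66.8 CPM in Coast buds (CV 14.3%) and 32.3 to 64.6 CPM in Inland buds (CV 23.2%), and was steady in both. In Inland buds the lowest CVs were those of Migut.H01595 (15.1%, 103 to 172 CPM) and Migut.M00889 (17.1%, 59.4 to 97.5 CPM). For these 2 genes the Coast plants spread somewhat wider, over 77.01 to 173 CPM and 33.04 to 85.6 CPM.

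At the other end stood Migut.A01008. Its Coast plants 7, 1, 8 and 6 had 328, 74.7, 44.9 and 30.1 CPM, its other 6 Coast plants had 0 to 7.78 CPM, and all 10 Inland plants lay between 31.8 and 146 CPM. It was the only member without a count in every bud library, missing in Coast plant 3. The Coast mean of 49.2 ± 101 CPM thus rested on few plants, and the median Coast plant had 5.79 CPM against a median of 79.4 CPM in Inland plants. Migut.A00738 had 5.03 to 164 CPM in Coast buds (CV 121%) and 17.4 to 202 CPM in Inland buds (CV 85.6%), and 4 of its Coast plants were under 8 CPM.

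The widest spread in Inland buds was that of Migut.L01143 (CV 142%). Its Coast plants had 17.4 to 108 CPM, while Inland plants 10, 1 and 9 had 136, 72.04 and 56.4 CPM and the other 7 Inland plants had 1.26 to 15.5 CPM. Migut.L00863 had 19.9 to 356 CPM in Coast buds (CV 64.7%) and 2.32 to 278 CPM in Inland buds (CV 115%). Its lowest Coast plant was plant 7, the plant with the highest value of many other members, and Inland plants 3, 5 and 9 were all under 5 CPM.

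The spread was shared by many members. The 113 genes together took 0.427% to 1.54% of the counts of a Coast bud library (mean 0.890 ± 0.371%, SD, n = 10) and 0.750% to 1.60% of an Inland bud library (mean 1.15 ± 0.283%). Coast plants 2 and 4 had the lowest shares, 0.427% and 0.453%, and plants 7 and 1 the highest, 1.54% and 1.29%. Among Inland plants, plant 9 was lowest at 0.750%, and plants 10, 1 and 4 were highest at 1.60%, 1.52% and 1.45%. The number of members that reached 20 CPM in a single plant was 66 in Coast plants 2 and 4 and 112 in Coast plant 8, and it ran between 79 (plant 3) and 113 (plant 1) in Inland plants.

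**Figure D4:**
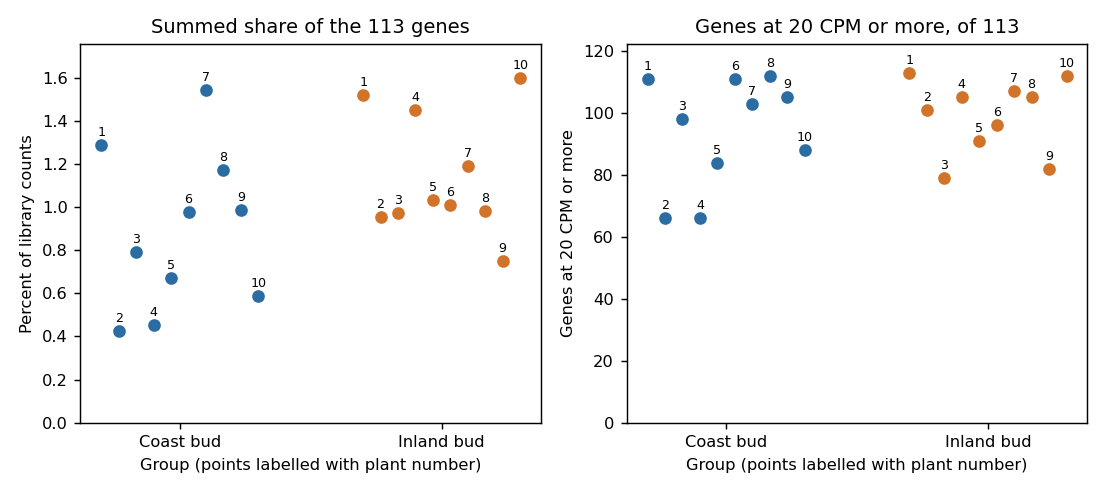
Left, percent of library counts taken by the 113 members in each bud library. Right, number of the 113 members at 20 CPM or more in that library. Points are single plants labelled with their plant number, Coast bud on the left and Inland bud on the right of each panel. Coast plants 2 and 4 are lowest in both panels, with 66 members at 20 CPM or more each.

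Counting each member's own extremes gave the same plants at the low end of Coast buds, but only in part elsewhere. Coast plant 7 held the highest Coast value of 50 of 113 members, plant 9 of 21 and plant 1 of 17, and the lowest value was in plant 2 for 40 members and in plant 4 for 38. Coast plant 2 was above the Coast mean in 3 members and Coast plant 8 in 100. In Inland buds plant 10 held the highest value of 40 members and plant 4 of 23. The lowest value was in plant 3 for 36 members and in plant 6 for 32. Inland plant 9, with the lowest share, held the lowest value of 19 members. Inland plant 6 was also the library with the lowest total, and the part of depth in this was not tested.

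In a principal component analysis of log2(CPM + 1), centred per gene, the first component held 63.9% of the variation of the members among Coast bud plants, and 103 of 113 members lay on 1 side of it. In Inland buds the first component held 49.8%, with 90 members on 1 side. On the larger side in both ecotypes lay 82 members. Of the 6979 genes, on their own first component, 3132 lay on 1 side and 3847 on the other in Coast buds. In Inland buds 3902 and 3077 did. The loadings of the members on the member components had a correlation of -0.337 between the ecotypes, a value across 113 genes that share libraries. The median pairwise correlation between members over the 10 plants was 0.509 in Coast buds and 0.321 in Inland buds, and 0.0119 and 0.0111 over pairs of the 6979 genes. These values describe libraries that all genes share, and no test was made on them.

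The main axis of the members was also the main axis of the buds as a whole. Over the 6979 genes the first component held 48.3% of the variation among Coast buds and 33.3% among Inland buds. On both the member axis and the axis of the 6979 genes, Coast plant 7 had the highest score, plant 1 the second highest and plant 2 the lowest. In Inland buds plants 10 and 7 had the 2 highest scores and plant 3 the lowest on both axes. The second component of the members held 20.7% in Coast buds, where plants 9 and 3 stood apart from plants 4 and 7, and 24.3% in Inland buds, where plant 6 stood apart with a score of -0.784.

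A minority of members ran against this pattern. The 10 members on the opposite side in Coast buds were Migut.A00882, Migut.K01075, Migut.H02081, Migut.N00710, Migut.J00395, Migut.H00714, Migut.N01812, Migut.L01143, Migut.K00434 and Migut.H01389, a set that the component itself picked out. Migut.A00882 had its highest Coast value, 225 CPM, in plant 4 and its lowest, 71.6 CPM, in plant 3. In Inland buds it had 3.18 and 16.4 CPM in plants 6 and 9 and 79.2 to 151 CPM in the other 8. Migut.N01812 had 79.03 and 76.2 CPM in Coast plants 9 and 3 and only 11.6 CPM in plant 7. Migut.K01075 had 38.9 to 128 CPM in all 10 Coast plants, but 0.580, 3.27 and 6.24 CPM in Inland plants 3, 10 and 7 and 49.5 to 128 CPM in the other 7 Inland plants.

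Library pool was tested in the 20 bud libraries, since it is technical and the rule did not use it. Samples had been assigned to the pools at random before library construction. With ecotype in the model, 0 of 113 members were called for a difference among pools (edgeR quasi-likelihood test over 17003 genes, Benjamini-Hochberg adjusted p under 0.05), against 1.79% of all genes tested. At an unadjusted p under 0.05 the count was 18 members (15.9%, against 20.9% of all genes), and voom with limma called 0 members as well. A p that misses the threshold does not show that the pools were alike, and each pool held only 4 to 6 bud libraries. The contrast of Coast and Inland buds was bounded by the ratio limits, so its calls are constrained by the choice of members. In it 49 members were called, where 64% of all 16735 genes tested were, and voom with limma called 1 member, where it called 60.6% of all genes. Nothing is read from these counts.

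Leaves held a faint trace of every member. A member had 1644 to 26405 counts over the 20 bud libraries and 5 to 193 counts, with a median of 51, over the 60 leaf libraries, so no member was without a leaf count. The fewest leaf counts were those of Migut.E01235 (5 counts in 5 libraries), Migut.L01339 (8 counts in 7 libraries), Migut.B00345 and Migut.H01783 (9 counts in 9 libraries each). In buds these 4 genes were ordinary members, averaging 20.8 to 29.6 CPM in Coast plants and 27.8 to 48.6 CPM in Inland plants. Migut.E01235, for example, had 4.19 to 41.7 CPM in Coast buds and 16.2 to 54.1 CPM in Inland buds.

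Among the 20 members with the highest bud level the leaf level was 0.142% to 0.270% of the bud level, and among the 20 with the lowest bud level it was 0.0621% to 1.69%. The leaf limit of 1 CPM itself bounds this percentage, more tightly the higher the bud level, so the narrower range of the first set is partly fixed by the rule. Over the 113 members the rank correlation of mean leaf level and mean bud level was 0.561, a value across genes that share the same libraries and whose leaf level the rule capped. With the leaf libraries of pool 1, 2, 3 or 4 alone it was 0.675, 0.511, 0.313 and 0.451. Of the 113, 85 had a leaf level under 0.5% of the bud level and 10 had at least 1%. The highest ratio, 2.17%, was that of Migut.N01812, with 0 to 3.17 CPM in single leaf libraries and a count in 54 of 60.

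In CPM by library total, the summed leaf level of the 113 members differed little among leaf groups and much among library pools. Coast leaves averaged 27.7 ± 10.9, 28.6 ± 9.28, 29.2 ± 11.6 and 31.4 ± 9.60 CPM from the 2leaf to the 8leaf stage, and Inland leaves averaged 32.3 ± 18.3 CPM in 2leaf and 35.1 ± 12.3 CPM in 4leaf plants (SD, n = 10 each). By pool it averaged 46.1 ± 9.33 CPM in pool 1, 27.2 ± 4.80 in pool 2, 23.1 ± 11.4 in pool 3 and 26.7 ± 4.35 CPM in pool 4 (14 to 16 leaf libraries each). The 15 leaf libraries of pool 1 had 35.96 to 71.01 CPM, and the 14 of pool 2 and 15 of pool 4 had at most 35.66 CPM. In pool 3 Inland 4leaf plants 4 and 7 reached 53.1 and 45.3 CPM, and the other leaf libraries of that pool had at most 32.2 CPM.

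**Figure D5:**
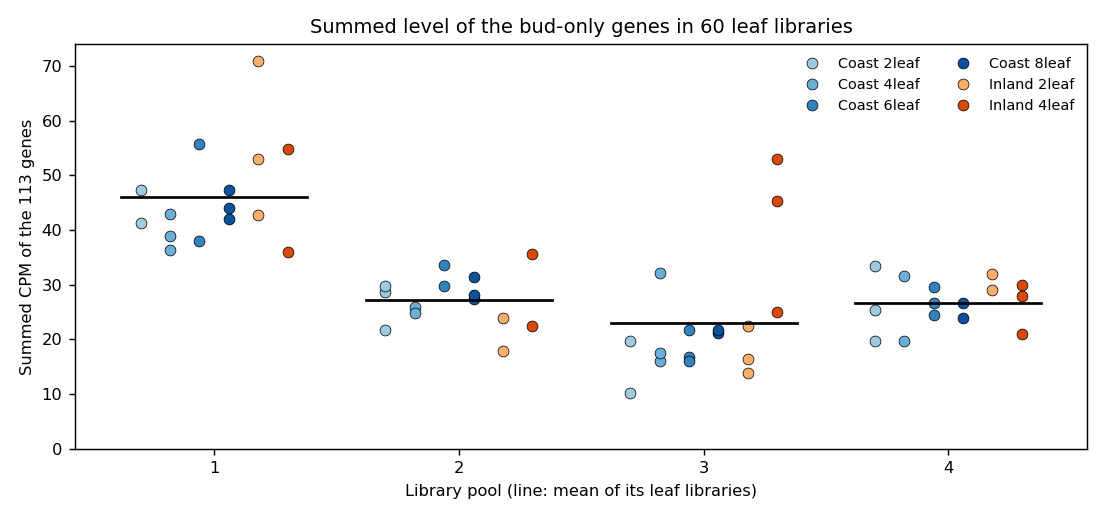
Summed CPM of the 113 members in each of the 60 leaf libraries, by library pool, with Coast leaf groups in blue and Inland leaf groups in orange. Lines are pool means. All leaf libraries of pool 1 lie above all those of pools 2 and 4, and in pool 3 2 Inland 4leaf libraries stand apart at 53.1 and 45.3 CPM.

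The pool difference was seen in single members too. For 76 of 113 members pool 1 had the highest mean leaf level of the 4 pools, and the median leaf level was 0.404% of the bud level in pool 1, 0.241% in pool 2, 0.155% in pool 3 and 0.246% in pool 4. The other 111 leaf-low genes behaved alike, with a summed 63.2 CPM in the leaf libraries of pool 1 and 22.9 to 28.8 CPM in the other pools. A sum over 5694 genes under 1 CPM in all 8 groups did not have its highest mean in pool 1, where it was 419 CPM against 442 to 525 CPM in the other pools. The bud libraries of pool 1 did not hold more of the members, with a mean summed level of 8548 CPM against 9467 to 11690 CPM in the other pools. The part of the pools in the leaf level was not tested.

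Differences between leaf groups were not part of the rule, and they were tested with 2 limits. The rule held every leaf group mean under 1 CPM, so a gene with more in any leaf group could not be a member. All 113 members passed the filter on low counts, but only through their bud counts, and 0 of them would have passed on the 40 two-leaf and four-leaf libraries alone. For both reasons the counts of members called are not read against the background. Both limits hold as well for each leaf test of a single member below, and those tests rest on few leaf counts. At the two-leaf stage 6 of 113 members differed between Coast and Inland leaves (edgeR quasi-likelihood test, adjusted p under 0.05), where 50.2% of 16735 genes did. All 6 were lower in Coast, and of the 8402 genes called 4135 were. At the four-leaf stage 8 members differed, against 57.5% of genes, with 1 higher and 7 lower in Coast. Of the 9618 genes called, 4826 were lower in Coast. The higher one was Migut.A00308, with 9 counts in Coast and 1 count in Inland four-leaf libraries (log2 fold change 2.11 ± 0.85, edgeR adjusted p = 0.0286), named for being the exception. Neither voom with limma (adjusted p = 0.216) nor DESeq2 (adjusted p = 0.0639) called it, and in pool 3 its log2 fold change was -0.095. The median log2 fold change of the members was -0.18 at 2leaf and -0.047 at 4leaf, and over all genes it was 0.0017 and -0.0099.

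Migut.M00889 had the smallest adjusted p at the two-leaf stage. It had 0 to 0.541 CPM (9 counts over the group) in Coast leaves and 0 to 1.86 CPM (32 counts) in Inland leaves at the two-leaf stage, a log2 fold change of -1.94 ± 0.47 (SE, edgeR adjusted p = 0.000427). At the four-leaf stage it had 0 to 0.706 CPM (12 counts) in Coast and 0 to 1.36 CPM (30 counts) in Inland leaves, a log2 fold change of -1.45 ± 0.45 (adjusted p = 0.00434). The groups overlapped at both stages, but every Coast plant lay under the Inland median of its stage (0.799 and 0.967 CPM). Its direction was the same within each of the 4 library pools at both stages, with an adjusted p under 0.05 only in pool 1 at 2leaf. In buds, where it was among the steadiest members, Migut.M00889 averaged 64.5 ± 16.1 CPM in Coast and 72.6 ± 12.4 CPM in Inland plants.

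Migut.M01473 had 7 counts in Coast and 22 counts in Inland leaves at the two-leaf stage (log2 fold change -1.73 ± 0.59, edgeR adjusted p = 0.0108). Migut.M00251 had 0 to 0.452 CPM in Coast and 0.310 to 1.11 CPM in Inland leaves at that stage, and a count in 5 Coast and all 10 Inland libraries (-1.98 ± 0.73, adjusted p = 0.0205). Both were lower in Coast at the two-leaf stage within each pool, and neither passed an adjusted p of 0.05 in any single pool. With voom and limma Migut.M00251 lost its call (log2 fold change -1.71, adjusted p = 0.0505), and Migut.M01473 kept it (adjusted p = 0.0402). In buds the ranges of the ecotypes overlapped in both genes, at 14.6 to 47.02 CPM in Coast and 15.7 to 46.1 CPM in Inland for Migut.M01473.

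At the four-leaf stage Migut.N00053 had the smallest adjusted p. It had 0 to 0.351 CPM (5 counts) in Coast leaves and 0 to 2.26 CPM (28 counts) in Inland leaves, a log2 fold change of -2.46 ± 0.66 (edgeR adjusted p = 0.00107). Its 2 highest Inland values, 2.26 and 2.09 CPM, were those of plants 7 and 4, the same libraries of pool 3 that held the highest summed trace in that pool. In buds its means stood the other way round, at 38.8 ± 12.1 CPM in Coast and 21.5 ± 13.2 CPM in Inland plants. Migut.J01054 had 3 counts in Coast and 29 counts in Inland four-leaf libraries (-3.04 ± 0.89, adjusted p = 0.00269), and 7 counts in Coast and 28 counts in Inland two-leaf libraries. Both genes were lower in Coast within each pool, and Migut.N00053 alone had an adjusted p under 0.05 there, in pool 3 (0.00315). In buds Inland plant 7 had 132 CPM of Migut.J01054 and all other bud plants of both ecotypes had at most 44.6 CPM.

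Stage contrasts within leaves had the same limits, so their counts of calls are not read either. Between the four-leaf and two-leaf stages edgeR called 0 of 113 members in Coast leaves, where 9.15% of genes were called, and 0 members in Inland leaves, where 16.9% were. At an unadjusted p under 0.05 there were 0 members in Coast leaves (23.2% of all genes) and 2 in Inland leaves (29.5% of all genes), and neither voom with limma nor DESeq2 called any member. Between eight-leaf and two-leaf Coast leaves, the longest span sampled, 3 members were called, against 40% of 17136 genes. The median log2 fold change of the members was -0.17 and that of all genes 0.039.

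Of these, 2 were higher and 1 was lower in eight-leaf plants, all on few counts. Migut.D00103 had 4, 9, 17 and 25 counts over the 10 Coast libraries at the 2leaf, 4leaf, 6leaf and 8leaf stages, with a count in all 10 eight-leaf libraries and 3 two-leaf libraries (log2 fold change 1.84 ± 0.76 for 8leaf over 2leaf, edgeR adjusted p = 0.0467). Migut.D00623 had 7, 16, 18 and 33 counts at the same stages (1.55 ± 0.58, adjusted p = 0.0267). Migut.J00395 had 11, 7, 2 and 3 counts (-1.98 ± 0.74, adjusted p = 0.0248). The plants of the compared stages overlapped in all 3 genes. Each of the 3 calls was lost under at least 1 other way of fitting.

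The 3 members with the highest leaf group means showed different leaf profiles. Migut.L01883 averaged 0.0892 to 0.260 CPM in the Coast leaf groups and 0.371 and 0.982 CPM in Inland 2leaf and 4leaf plants, and it was among the 8 genes called at the four-leaf stage. Migut.K00461 averaged 0.659 to 0.959 CPM in the Coast leaf groups and 0.781 and 0.584 CPM in Inland 2leaf and 4leaf plants, although its bud level was higher in Inland. Migut.N01812 averaged 0.557 to 0.900 CPM in Coast and 0.922 and 0.957 CPM in Inland leaves.

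By identifier, whose letter A to N gives the linkage group (O marks other scaffolds), the members came from every linkage group. Letter H, linkage group 8, held 19 of 113 (16.8%, against 9.09% of all genes in the table and 10.1% of the 6979 genes at 20 CPM or more in both bud groups). Letter N, linkage group 14, held 17 (15.0%, against 12.0% of the table), and letters F and I held 2 each. Among all leaf-low genes at 20 CPM or more in both bud groups, members included, letter H held 13.4% and letter N 14.3%. Of the 30 such genes with letter H, 19 were members, so the higher share of letter H lay largely in the members. No test was made on these shares. No member had a gene number next to that of another member, and 3 pairs lay within 5 numbers, Migut.A00898 with Migut.A00901, Migut.N00049 with Migut.N00053 and Migut.N01812 with Migut.N01814.

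The immediate neighbours of members included other leaf-low bud genes. Of 226 flanking identifiers, 7 (3.10%) were under 1 CPM in every leaf group and at 20 CPM or more in both bud groups, as were 0.796% of all genes in the table. None of the 7 was a member, since the ratio of each lay outside 0.5 to 2. Migut.A00899, beside Migut.A00898, averaged 34.7 CPM in Coast and 257 CPM in Inland buds. Migut.D00102, beside Migut.D00103, averaged 103 CPM in Coast and 357 CPM in Inland buds. Only Migut.D01898 was higher in Coast, at 188 CPM in Coast and 72.5 CPM in Inland buds. These genes were named after their values were seen.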

How the data were processed

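Total RNA of leaves and floral buds was turned into 3′-Tag-Seq libraries. The authors trimmed reads with cutadapt, aligned them with BWA, kept primary alignments with SAMtools and deposited whole-number counts per gene, made by HTSeq with its stranded option (version 0.6.1 per the submitters' processing notes), in 1 table of 80 libraries. All 80 columns were matched to samples by name. CPM used the library total. Library pools were sequenced on different numbers of flow cells.

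Leaf contrasts were fitted on 60 libraries (two-leaf, four-leaf, bud) as ecotype, stage and their interaction, and eight-leaf against two-leaf on all 80 libraries by group, with R 4.3.3, edgeR 4.0.16 (filterByExpr with a count minimum of 10, TMM, quasi-likelihood F test) and Benjamini-Hochberg adjustment over all genes tested. limma 3.58.1 (voom) and DESeq2 1.42.0 served as alternatives, with other scalings, filters and terms. The steps were tested on simulated data. Named genes were taken by rank: highest bud means, fewest leaf counts, ratio nearest 1, extreme CVs, threshold edges, highest leaf means and smallest adjusted p. The members, lists and rules were chosen with earlier results of these data known.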

Additional observations from a re-analysis of the deposited data

Results flagged for a closer look

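Among 34 named members in the 2 bud groups, and the summed share, 70 groups of 10 plants were checked. Dixon's test on the gap to the nearest plant looked for a plant far from the other 9. Chance alone gives this in about 1 in 20 groups if groups are independent and their values normally distributed. These groups came from the same 20 bud libraries and their distribution was not checked, so that rate is only a rough guide. In 9 groups a plant stood apart, at the high end each time. Of these 9, 4 were among the 8 groups of genes named for a high CV, where that rate does not apply. Coast plant 7 was that plant in 5 of the 9. It had 710 CPM of Migut.L01474 (next highest 378), 328 CPM of Migut.A01008 (next 74.7), 92.5 CPM of Migut.L01883 (next 44.1), 83.7 CPM of Migut.N02965 (next 41.8) and 127 CPM of Migut.D00103 (next 60.7). Migut.L01143 stood apart in both ecotypes, with 108 CPM in Coast plant 9 (next 56.6) and 136 CPM in Inland plant 10 (next 72.04). Inland plant 3 had 202 CPM of Migut.A00738 (next 107), and Inland plant 7 had 132 CPM of Migut.J01054 (next 44.6).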

How the results depend on the processing

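The size of the set followed its limits, with 73 genes at a leaf limit of 0.5 CPM, 175 at a bud minimum of 10 CPM, 64 at 40 CPM and 71 at ratios from 2/3 to 1.5. TMM-scaled CPM kept 78 of the 113 and added 1. Group medians in place of means gave 104 genes, 87 of them members. Without Inland bud plants 6 and 7, 102 were kept. In place of 6 members at the two-leaf stage, voom with limma called 2, DESeq2 11 and a fit of leaf libraries only 10. Fits within library pools 1 to 4 called 1, 0, 0 and 1. Of all genes, voom with limma called 8127 of 16735, DESeq2 8451 of 16735 and the leaf-only fit 8320 of 16722. The pool fits called 4019 of 17498, 3909 of 17649, 3201 of 16850 and 3621 of 17314 genes. In place of 8 at the four-leaf stage, voom with limma called 4 and the pools 0, 0, 2 and 1. There voom with limma called 9279 of 16735 genes, and the pool fits called 5384, 3737, 5510 and 4778 genes. Within-pool and leaf-only fits, and TMM-scaled leaf sums, were added after the data were seen, and leaf-only fits kept the genes of the larger fit because no member passed the count filter without buds. For eight-leaf against two-leaf, voom with limma called 1 and coastal leaf libraries only called 6, both in place of 3. Over all genes they called 6782 of 17136 and 7197 of 17113. Migut.D00623 lost its call under those same 2 fits, Migut.D00103 under voom with limma and without a count filter, and Migut.J00395 with library size alone (adjusted p = 0.0503). For buds, voom with limma called 1 in place of 49. Library size alone moved the median log2 fold change of all genes to 0.12 at 2leaf and 0.10 in buds. It became 0.24 for Inland 4leaf over 2leaf, 0.15 for Coast 4leaf over 2leaf and 0.45 for eight-leaf over two-leaf. In that last contrast 4 members were then called higher and 0 lower, and of 17136 genes 8423 higher and 1425 lower. The median of the members for eight-leaf over two-leaf turned from -0.17 to 0.19 with library size alone. Of the leaf fold changes recomputed for single named genes, only that of Migut.A00308 changed sign, to -0.095 within pool 3. Migut.A00308 lost its call under voom with limma and DESeq2 and within every pool. The median bud ratio of the members was 0.526 to 1.10 within pools. Within 5 gene numbers, 6 members lay near another. The summed leaf level became 55.9 CPM in pool 1 and 28.3 CPM in pools 2 to 4 with TMM. Among leaf groups the median TMM factor ran from 0.738 in Inland 2leaf to 1.07 in Coast 8leaf libraries. Sums compared among leaf groups therefore depend on the scaling.

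Plant numbers are shared by the groups, but nothing in the sources says that they pair plants. Same-numbered libraries of different groups had a mean correlation of -0.0019, and 6 of 80 libraries correlated best with their own number. With plant number as a replicate block, 5 members were called at the two-leaf and 7 at the four-leaf stage. For each four-leaf over two-leaf contrast 0 were called, for eight-leaf over two-leaf 3, and in buds 63. Of 16735 genes, the same terms called 8367 at two-leaf, 9612 at four-leaf and 10780 in buds. For four-leaf over two-leaf they called 1492 in Coast and 2715 in Inland leaves. For eight-leaf over two-leaf, 6799 of 17136 genes were called. Leaf values rest on few counts, 29 to 259 for the 113 members together in a leaf library, and differ by pool.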
